A study of Homo sapiens with 6 samples.

Results

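The 9 genes described here take part in the release of calcium from the endoplasmic reticulum (ER) and in its refilling. They are the inositol trisphosphate (IP3) receptors ITPR1, ITPR2 and ITPR3, the ER calcium pumps ATP2A2 and ATP2A3, the ER calcium sensors STIM1 and STIM2, and the plasma membrane calcium channels ORAI1 and ORAI3. They form a list of ER calcium release and uptake genes that was made with earlier results of these data known, and all 9 were matched among 35810 genes, of which 13737 were tested. ITPR2 is also labelled in the study's own plot of these libraries, so its difference is not independent of that choice.

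The cells were SPT5-AID, a human colorectal adenocarcinoma line (DLD-1) whose SPT5 was fused to a degron that auxin switches on. The line was made with the auxin receptor AtAFB2, and it is a single line. Cells were infected with GIPZ lentivirus expressing an shRNA against ARMC5, the adaptor of a CUL3 ubiquitin ligase (shARMC5), or a nontargeting shRNA (shNT), and infected cells were selected with puromycin. There were 3 libraries of polyadenylated RNA in each group. The labels name no auxin for either group, and which of the ARMC5 constructs was used for these libraries is not given in the sources used here. The study's methods describe replicates as biological, and the labels do not say whether the libraries came from separate cultures or infections, so P values measure the spread between these samples.

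Hormones and growth factors that act through Gq proteins or receptor kinases activate phospholipase C, which makes IP3. IP3 opens its receptors in the ER membrane and calcium leaves the store. SERCA pumps return calcium to the ER at the cost of ATP. When the store empties, STIM proteins sense the fall in luminal calcium, cluster beside the plasma membrane and open ORAI channels, which is known as store-operated calcium entry. In epithelial cells these signals drive secretion, and IP3 receptors at contacts between ER and mitochondria also pass calcium to mitochondria.

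Splicing changes what some of these genes encode, and the following stretches show the places that the transcript measurements turn on. The first pair shows STIM2 with and without an internal coding exon of 24 bases at chr4:27007983-27008006 on the plus strand (GRCh38), in capitals. The form with the exon is known as STIM2β and as an inhibitor of store-operated entry.
STIM2 with the exon: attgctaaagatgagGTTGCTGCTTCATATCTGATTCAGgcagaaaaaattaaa
STIM2 without the exon: attgctaaagatgaggcagaaaaaattaaa
ATP2A2 ends its reading frame in alternative ways. Capitals mark the last coding bases of the SERCA2a transcript, in an exon at chr12:110350292-110350305, and of the SERCA2b transcript, at chr12:110346322-110346470, both on the plus strand and both including the stop codon. SERCA2a is known from heart and slow muscle, and SERCA2b from most other tissues.
SERCA2a end: actacctggaacctgCAATACTGGAGTAA
SERCA2b end: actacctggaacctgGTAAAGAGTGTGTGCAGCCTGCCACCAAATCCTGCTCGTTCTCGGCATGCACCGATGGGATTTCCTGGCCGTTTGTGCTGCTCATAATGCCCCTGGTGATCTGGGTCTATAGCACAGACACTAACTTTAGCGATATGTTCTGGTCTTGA
The third pair shows how far reads of related receptors can be told apart. Capitals mark the longest identical run of a main coding transcript of ITPR1 and of ITPR2, 29 bases in a coding exon of each (chr3:4676766-4676794, plus strand, and chr12:26631873-26631901, minus strand).
ITPR1: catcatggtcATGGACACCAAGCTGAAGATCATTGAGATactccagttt
ITPR2: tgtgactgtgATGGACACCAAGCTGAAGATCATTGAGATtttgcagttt
The other 5 pairs of paralogs, one main transcript of each gene against that of its relative, had longest identical runs of 14 to 20 bases. No stretch of 31 bases was shared in any of the 6 pairs.

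The libraries held 26201112 to 40866478 assigned reads. ARMC5 itself had 23.0, 25.9 and 26.7 CPM (reads of the gene per 1000000 reads) in shNT replicates 1, 2 and 3, and 10.8, 11.97 and 12.9 in shARMC5 replicates 1, 2 and 3, so every shARMC5 library was below every shNT library. Its log2 fold change was -1.09 ± 0.08 (SE, adjusted P = 5.32e-07, edgeR's quasi-likelihood F test). Of 11 matched markers of colorectal epithelium, 9 were above 1 TPM (transcripts of the gene per 1000000 transcripts) in every library. CDX1 was listed at 0, and LGALS4 had 0.234 to 1.07 TPM, from 3 to 13 reads. The summed level of the 11 markers was 7639 to 8152 TPM in shNT and 8619 to 8912 TPM in shARMC5 libraries, a sum carried mostly by the keratins KRT8 and KRT18. Of the 9 that were tested, 3 rose (KRT8, KRT18 and KRT19, with log2 fold changes of 0.18, 0.25 and 0.11) and 3 fell (VIL1, CDH17 and ELF3, with -1.30, -0.27 and -0.19). At an adjusted P under 0.1 in edgeR's test this was 66.7% of the tested markers, beside 7.75% of all tested genes. The part of these differences in the results below was not tested. All 13 markers of blood, stromal, endothelial, liver and muscle cells were under 1 TPM in every library, with summed levels of 2.06 to 2.64 TPM in shNT and 1.61 to 2.24 TPM in shARMC5.

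Of the 9 genes, 8 had at least 10 reads in at least 3 libraries and were tested, and 1 of them was called, ITPR2, which fell. A gene was called at an adjusted P value under 0.1, the study's own threshold, and in the same test 7.75% of the 13737 genes were called, 3.3% lower and 4.44% higher in shARMC5. The CPM values of the groups did not overlap for 4 of the 8 genes, against 23.4% of all tested genes. ITPR2 and ORAI3 were lower and ATP2A2 and STIM2 higher in every shARMC5 library, but only ITPR2 passed the test. The median log2 fold change of the 8 genes was 0.02, beside -0.00 over all tested genes, and the median of its size without sign was 0.09, beside 0.08. The libraries hold RNA from many cells, so fewer cells with a transcript and less RNA per cell cannot be told apart.

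**Figure D1:**
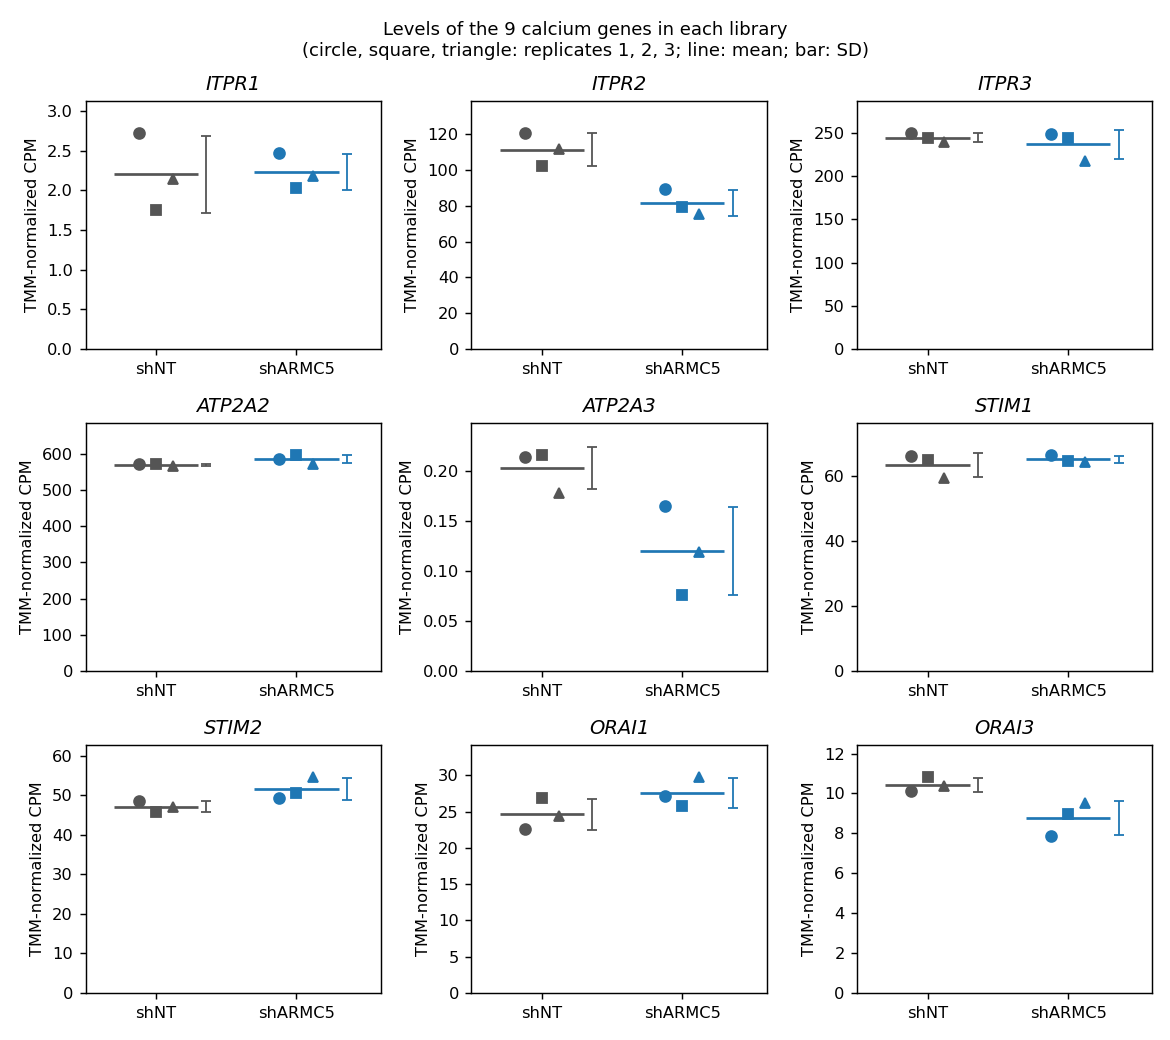
Each panel plots 1 gene, with the TMM-normalized CPM of each library on the vertical axis, which starts at 0, and the groups on the horizontal axis. Points are libraries, lines are group means and bars are the SD (n = 3): ITPR2 lies between 102 and 120.5 CPM in shNT and between 75.3 and 89.5 CPM in shARMC5, while the values of ITPR1, ITPR3, STIM1 and ORAI1 overlap between the groups.

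The levels of the 9 genes covered a wide range when set on a scale per transcript length. In shNT cells ATP2A2 was highest at 182.5 TPM ± 7.24 (SD, n = 3), followed by ITPR3 at 37.7 ± 2.10, STIM2 at 27.7 ± 1.58, STIM1 at 25.3 ± 2.83 and ORAI1 at 25.0 ± 2.18. Below them were ITPR2 at 15 TPM ± 1.35, ORAI3 at 7.95 ± 0.445, ITPR1 at 0.600 ± 0.186 and ATP2A3 at 0.558 ± 0.733 (SD, n = 3). The ranges over libraries overlapped between the neighbours STIM2 and STIM1, STIM1 and ORAI1, and ITPR1 and ATP2A3, and these are not ordered by TPM beyond their spread. For ITPR1 and ATP2A3 the overlap rested on shNT replicate 1, where ATP2A3 had 1.40 TPM. Of that, 1.34 TPM came from a retained-intron transcript of 230 bases with 2.86 estimated reads. In shNT replicates 2 and 3 ATP2A3 had 0.0667 and 0.207 TPM, and ITPR1 0.453 and 0.539 TPM. The order of the sensors depended on the transcripts counted: a retained-intron transcript of STIM2 of 474 bases, with 36 to 83 reads per library, gave 8.41 TPM ± 0.0852 of its level in shNT (SD, n = 3). With protein-coding transcripts only, STIM1 held between 60.6 and 66.6% of the TPM of the pair in every library. In shARMC5 cells ATP2A2 had 187.4 TPM ± 6.32, ITPR3 35.9 ± 3.02, STIM2 28.7 ± 2.44, ORAI1 27.7 ± 1.87, STIM1 23.7 ± 1.13, ITPR2 10.2 ± 0.881, ORAI3 6.63 ± 0.428, ITPR1 0.596 ± 0.0730 and ATP2A3 0.0522 ± 0.0170 (SD, n = 3).

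Among the release channels, ITPR2 fell. ITPR2, at chr12:26335352-26833194 on the minus strand, encodes the IP3 receptor known for the highest affinity for IP3. It had 120.5, 102 and 111.5 CPM in shNT replicates 1, 2 and 3, and 89.5, 79.4 and 75.3 CPM in shARMC5 replicates 1, 2 and 3. The highest shARMC5 library was below the lowest shNT library. The mean level in shARMC5 was 0.731 of that in shNT, with a log2 fold change of -0.45 ± 0.09 (SE, unadjusted P = 0.00371, adjusted P = 0.0626, edgeR's test). These values rest on 1899 to 3940 reads per library. By P value ITPR2 stood at rank 815 of all tested genes, and it was among 75 genes called lower with a log2 fold change of that size or larger.

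In edgeR the call of ITPR2 depended on single libraries, while its direction did not. Its log2 fold change lay between -0.52 and -0.39 when each library was left out in turn. It was not called without shNT replicate 3 (adjusted P = 0.197), without shARMC5 replicate 2 (0.216) or without shARMC5 replicate 3 (0.134, edgeR's test). Over all alternatives its adjusted P value ranged from 5.31e-10 to 0.216, and it was called under 12 of 16. With an offset for the average transcript length of each library, its log2 fold change was -0.54 in both edgeR and DESeq2. The adjusted P value with that offset was 0.0153 in edgeR and 5.31e-10 in DESeq2, which gave 8.39e-10 without it. The fits without 1 library were run in edgeR only.

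ITPR3, at chr6:33620365-33696574 on the plus strand, encodes the receptor typical of secretory epithelia and was the most abundant of the 3. It had 249.5, 243.8 and 239 CPM in shNT replicates 1, 2 and 3, and 248.3, 244.2 and 217.5 CPM in shARMC5 replicates 1, 2 and 3. The groups overlapped, with only shARMC5 replicate 3 below the shNT range. This gave a log2 fold change of -0.04 ± 0.05 (SE, adjusted P = 0.706, edgeR's test), and 2 standard errors either side of it span -0.14 to 0.05. ITPR3 shares 1025 exonic bases with UQCC2 on the opposite strand. The library kit named in the labels does not mark strand, so reads in that stretch cannot be told apart. UQCC2 had 847 to 1331 reads per library and a log2 difference of -0.11 (adjusted P = 0.308, edgeR's test).

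ITPR1, at chr3:4493345-4847506 on the plus strand, encodes the receptor best known from the brain and was near the lower limit of measurement. It had 2.72, 1.76 and 2.14 CPM in shNT and 2.48, 2.03 and 2.18 CPM in shARMC5 replicates 1, 2 and 3, from 55 to 89 reads per library. The shARMC5 libraries all lay within the shNT range. Its fold change on the log2 scale was 0.01 ± 0.22 (SE, adjusted P = 0.988, edgeR's test), and 2 standard errors span -0.42 to 0.45, the widest interval of the 8 genes.

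The make-up of the receptor family was compared as the share of each gene in the summed TPM of the 3 receptors. ITPR2 held 28.6, 26.5 and 29.4% in shNT libraries and 21.8, 21.8 and 21.7% in shARMC5 libraries, with means of 28.1% ± 1.45 and 21.8% ± 0.0862 (SD, n = 3). The groups did not overlap (n = 3, two-sided exact permutation P = 0.1, the smallest value that 3 against 3 libraries allow). The share of ITPR3 was 70.7% ± 1.61 in shNT and 76.9% ± 0.177 in shARMC5 (n = 3, exact permutation P = 0.1). The share of ITPR1 was 1.12% ± 0.274 and 1.29% ± 0.211 (n = 3, exact permutation P = 0.4). The summed level of the 3 receptors was 57.1, 51.2 and 51.5 TPM in shNT and 49.1, 48.7 and 42.2 TPM in shARMC5 libraries (exact permutation P = 0.1). Every shARMC5 sum was below every shNT sum. When only protein-coding transcripts were used, the difference in the ITPR2 share was -4.57 percentage points in place of -6.37. The ITPR2 shares were then 25.1% ± 1.41 in shNT and 20.5% ± 1.17 in shARMC5, without overlap (SD, n = 3, exact permutation P = 0.1).

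**Figure D2:**
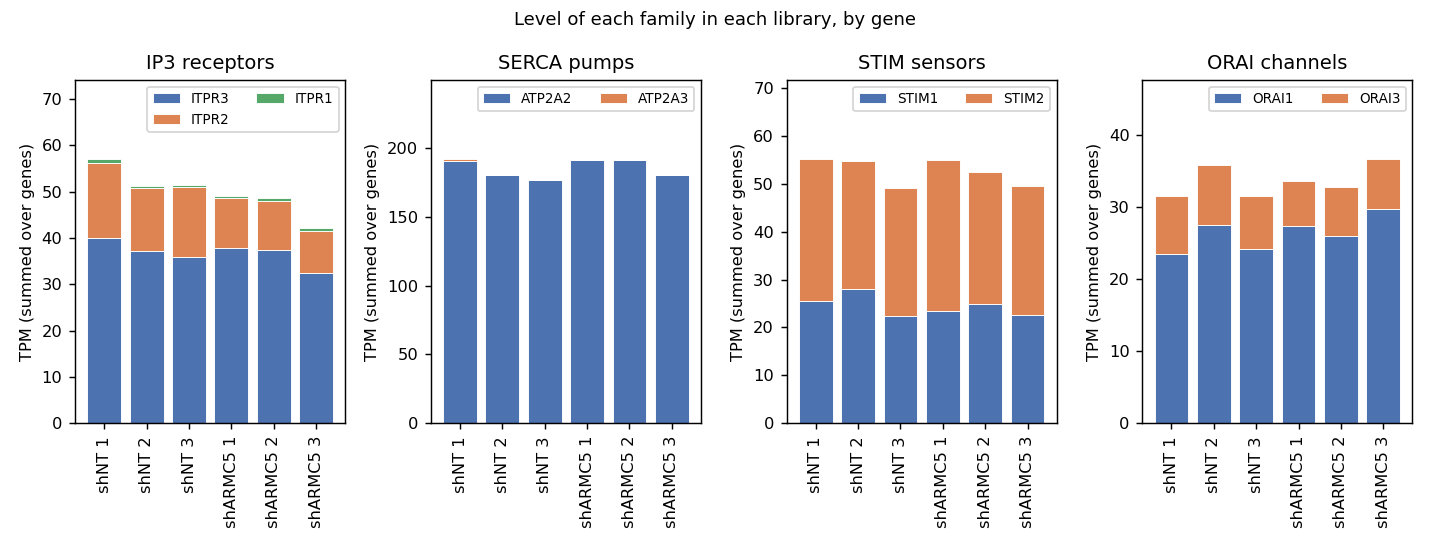
Stacked bars give the TPM of each gene in each library (horizontal axis), with the vertical axis from 0. The bars are the IP3 receptors, the SERCA pumps ATP2A2 and ATP2A3, the STIM sensors, and the channels ORAI1 and ORAI3. ATP2A1 and ORAI2, which are not among the genes described here, are left out. The ITPR2 segment is between 13.6 and 16.3 TPM in shNT and between 9.15 and 10.7 TPM in shARMC5 libraries, and ATP2A3 shows as a thin segment only in shNT replicate 1, at 1.40 TPM.

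The calcium pumps were not called. ATP2A2 (SERCA2), at chr12:110280756-110351093 on the plus strand, had 570.9, 571.4 and 566 CPM in shNT replicates 1, 2 and 3, and 586.9, 596.6 and 572.8 CPM in shARMC5 replicates 1, 2 and 3. Each shARMC5 library was above each shNT library in CPM, by a small margin, and the groups overlapped in TPM. Its fold change on the log2 scale was 0.04 ± 0.03 (SE, adjusted P = 0.445, edgeR's test), and 2 standard errors span -0.01 to 0.09. This was the narrowest interval of the 8 genes.

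ATP2A3 (SERCA3), at chr17:3923870-3964464 on the minus strand, had 7, 7 and 5 reads in shNT replicates 1, 2 and 3, and 5, 3 and 3 reads in shARMC5 replicates 1, 2 and 3. It did not pass the filter on low counts and was not tested. Its TPM in shNT replicate 1, 1.40, stood apart from 0.0667 and 0.207 in the other shNT libraries although the reads were the same or nearly so. In that library 2.86 estimated reads were assigned to a transcript of 230 bases, whose effective length of 96 bases turned them into 1.34 TPM. ATP2A2 thus held 99.7% ± 0.379 of the summed TPM of ATP2A2 and ATP2A3 in shNT and 99.97% ± 0.00830 in shARMC5 (SD, n = 3, exact permutation P = 0.1). The difference of 0.267 percentage points rests on those few reads: it was 0.0493 without shNT replicate 1 and 0.0151 by rounded counts. With protein-coding transcripts only it was 0.0220, and the groups overlapped (n = 3, exact permutation P = 0.2). ATP2A1 (SERCA1) is not among the genes described here and was left out of these shares. Its mean level was 6.66 TPM in shNT and 4.77 TPM in shARMC5, above that of ATP2A3, so ATP2A2 held less of all SERCA transcripts.

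The sensor STIM2, at chr4:26857601-27025381 on the plus strand, is known to respond to small falls in ER calcium. It had 48.5, 45.8 and 47.0 CPM in shNT replicates 1, 2 and 3, and 49.4, 50.5 and 54.6 CPM in shARMC5 replicates 1, 2 and 3. The shARMC5 libraries were all above the shNT libraries in CPM, but the groups overlapped in TPM. On the log2 scale the difference was 0.13 ± 0.05 (SE, unadjusted P = 0.0174, adjusted P = 0.161, edgeR's test), and STIM2 was not called. With the length offset it was 0.07 in edgeR (adjusted P = 0.738).

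STIM1, at chr11:3854527-4093210 on the plus strand, is the main sensor of store-operated entry in most cells. It had 66.4, 65.1 and 59.4 CPM in shNT replicates 1, 2 and 3, and 66.6, 64.8 and 64.3 CPM in shARMC5 replicates 1, 2 and 3. The groups overlapped. On the log2 scale the difference was 0.03 ± 0.04 (SE, adjusted P = 0.750, edgeR's test), and 2 standard errors span -0.05 to 0.12. With the length offset it was -0.08 in edgeR (adjusted P = 0.728) and in DESeq2, so its direction was not settled. STIM1 held 47.7% ± 3.04 of the summed TPM of both sensors in shNT and 45.3% ± 2.31 in shARMC5 (SD, n = 3, exact permutation P = 0.5). This difference of -2.39 percentage points lay between -3.51 (without shNT replicate 3) and -0.659 (without shNT replicate 2) with 1 library left out. It turned to 0.878 with protein-coding transcripts only.

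Neither channel gene was called. ORAI1, at chr12:121626509-121643218 on the plus strand, forms the pore of the classical store-operated channel. It had 22.6, 26.9 and 24.4 CPM in shNT replicates 1, 2 and 3, and 27.1, 25.8 and 29.8 CPM in shARMC5 replicates 1, 2 and 3. The groups overlapped through shNT replicate 2 and shARMC5 replicate 2. The log2 fold change was 0.16 ± 0.07 (SE, unadjusted P = 0.0459, adjusted P = 0.267, edgeR's test). With 1 library left out it lay between 0.0994 (without shARMC5 replicate 3) and 0.226 (without shNT replicate 2).

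ORAI3, at chr16:30949068-30956461 on the plus strand, forms store-operated and other calcium channels together with ORAI1. It had 10.1, 10.8 and 10.3 CPM in shNT replicates 1, 2 and 3, and 7.85, 8.95 and 9.52 CPM in shARMC5 replicates 1, 2 and 3. The shARMC5 libraries were all below the shNT libraries, in TPM as well. The log2 fold change was -0.25 ± 0.10 (SE, unadjusted P = 0.0213, adjusted P = 0.177, edgeR's test), from 238 to 353 reads per library. ORAI3 shares 1397 exonic bases with an annotated gene on the same strand that was not analysed here. ITPR2 shares 172 and 37 such bases with 2 genes, STIM1 250 and 80 with 2 genes. On the opposite strand, which the kit does not tell apart, ITPR1 shares 444 exonic bases with 1 gene and STIM1 192 and 74 with 2 genes. Reads in these stretches could belong to either gene. The gene that shares 74 bases with STIM1 was matched and was listed at 0 reads in every library. ITPR2, STIM2, ORAI1 and ORAI3 thus had an unadjusted P value under 0.05, which held for 18.1% of all tested genes.

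ORAI1 held 74.5, 76.7 and 76.4% of the summed TPM of ORAI1 and ORAI3 in shNT libraries, and 81.7, 79.4 and 81.0% in shARMC5 libraries. The groups did not overlap (75.9% ± 1.18 and 80.7% ± 1.19, SD, n = 3, exact permutation P = 0.1). The sum of both was 33.0 TPM ± 2.50 in shNT and 34.3 TPM ± 2.07 in shARMC5 (SD, n = 3, exact permutation P = 0.5), so the groups overlapped in the total. ORAI2, the remaining member of the family, was on the list of store-operated entry genes and showed a log2 fold change of -0.18 ± 0.07 (SE, adjusted P = 0.145, edgeR's test).

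**Figure D3:**
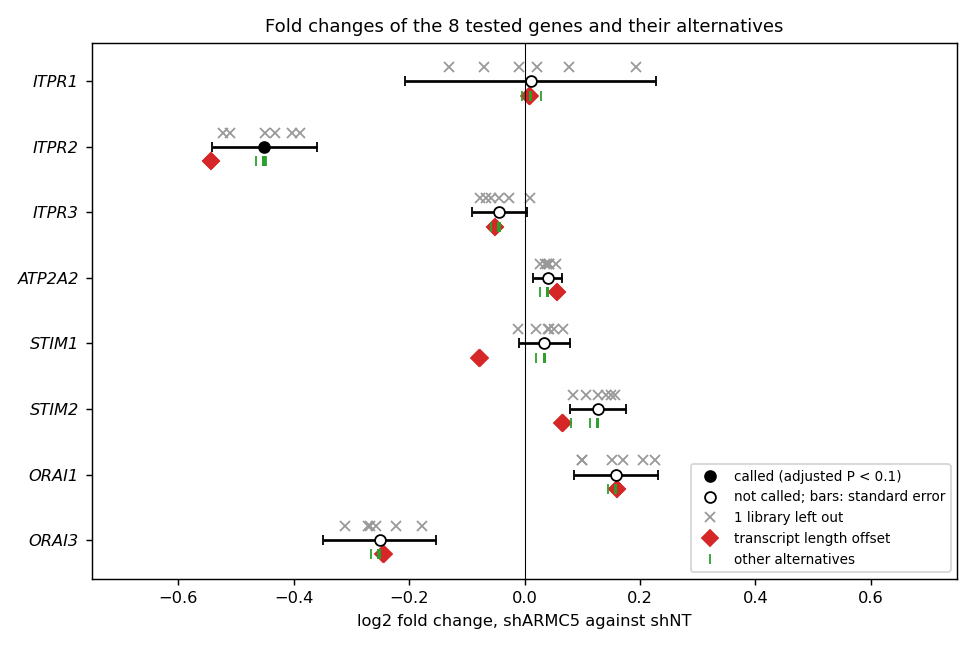
The log2 fold change of shARMC5 against shNT (horizontal axis) is plotted for the 8 tested genes (vertical axis), as circles with the standard error as bars, filled where the gene was called; smaller marks give the alternatives. ITPR2 at -0.45 is the only filled circle, and the marks of ITPR1, ITPR3 and STIM1 lie on both sides of 0.

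At the level of transcripts, 131 transcripts of the 9 genes were matched, 56 had reads and 27 were tested. None of the 27 was called by edgeR's test, in which 4 of 51892 transcripts (0.00771%) were called. Of the 27, 4 had an unadjusted P value under 0.05, against 4.8% of all tested transcripts: the full-length transcript of ITPR2, a coding transcript of ATP2A2 and a pair of STIM2. DESeq2 called 3 of these, all but that of ATP2A2, and 2.69% of all transcripts. Salmon divides reads that transcripts share, and the error of that division was not among the deposited values.

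By reads, ITPR2 was measured almost wholly through 1 transcript. This transcript (ENST00000381340), with 57 exons and 12564 bases, encodes the full receptor and held 96.6% ± 1.06 of the gene's reads in shNT and 98.1% ± 1.67 in shARMC5 (SD, n = 3). It had 14.4, 11.6 and 12.2 TPM in shNT and 10.5, 8.95 and 8.49 TPM in shARMC5 replicates 1, 2 and 3, without overlap. The log2 fold change was -0.43 ± 0.10 (SE, edgeR's adjusted P over transcripts = 0.463, 0.00121 from DESeq2). A transcript of 2577 bases (ENST00000451599) annotated for nonsense-mediated decay (NMD), had 1.59, 2.04 and 2.72 TPM in shNT and 0.188, 1.67 and 0.656 TPM in shARMC5 libraries, from 10 to 135 reads. This short transcript averaged 2.12 TPM of the gene's 15 TPM in shNT and 0.839 TPM of 10.2 TPM in shARMC5. Its share of the gene's reads was 3.33% ± 1.08 in shNT and 1.86% ± 1.67 in shARMC5 (SD, n = 3, exact permutation P = 0.3), and the groups overlapped.

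STIM2 had several transcripts of similar level. By TPM, transcripts with the exon of 24 bases shown above, of 3613 bases (coding, ENST00000465503) and 4965 bases (annotated for NMD, ENST00000477474), held 64.1, 56.7 and 61.8% in shNT and 57.4, 56.3 and 49.1% in shARMC5 libraries, out of the 5 transcripts that span the place. The groups overlapped (60.9% ± 3.81 and 54.3% ± 4.49, SD, n = 3, exact permutation P = 0.2). By estimated reads the shares were 62.3% ± 3.45 and 54.9% ± 4.28, and among transcripts of at least 3000 bases 64.8% ± 3.97 and 55.1% ± 4.30, both without overlap (n = 3, exact permutation P = 0.1 each). By TPM the difference was -6.61 percentage points, and it lay between -8.70 (without shNT replicate 2) and -4.04 (without shARMC5 replicate 3) with 1 library left out. This share was chosen after the transcript values were seen, and it counts the NMD transcript, so it is not a share of STIM2β coding transcripts alone. The transcript of 3925 bases without the exon (ENST00000467011) had 2.33, 3.23 and 2.55 TPM in shNT and 4.16, 3.91 and 4.37 TPM in shARMC5 libraries. Its log2 fold change was 0.64 ± 0.18 (SE, adjusted P = 0.687 from edgeR, 0.0313 from DESeq2). The transcript of 1328 bases without the exon (ENST00000473519) had 20 to 32 reads in shNT and 5 to 8 in shARMC5 libraries, with a log2 fold change of -1.98 ± 0.51 (SE, adjusted P = 0.597 from edgeR, 0.00792 from DESeq2). The remaining transcript without the exon, of 5154 bases (ENST00000467087), had 2.87, 2.65 and 2.73 TPM in shNT and 2.54, 3.34 and 4.25 TPM in shARMC5 libraries, which overlapped (log2 fold change 0.32 ± 0.21, SE). Of those with the exon, the one of 3613 bases had 7.30, 5.15 and 5.79 TPM in shNT and 3.93, 5.49 and 3.34 TPM in shARMC5 libraries (log2 fold change -0.49 ± 0.22, SE), and the one of 4965 bases had 4.10, 3.95 and 4.06 TPM in shNT and 5.38, 4.12 and 5.34 TPM in shARMC5 (0.31 ± 0.13, SE), and neither was called.

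**Figure D4:**
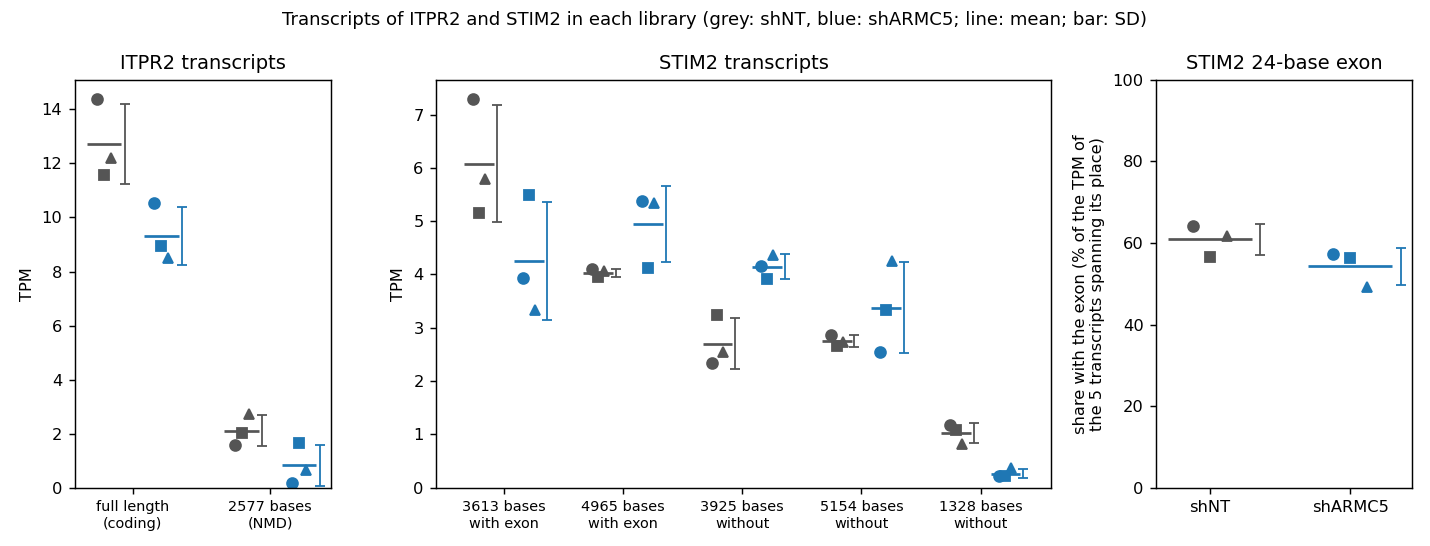
Points are libraries, lines means and bars the SD (n = 3), with TPM on the vertical axis for 2 ITPR2 transcripts and 5 STIM2 transcripts and, in the last panel, the percentage of TPM in transcripts with the 24-base exon, out of the 5 STIM2 transcripts that span its place. The full-length ITPR2 transcript and the STIM2 transcripts of 4965, 3925 and 1328 bases do not overlap between the groups, while the share of the exon overlaps (60.9% and 54.3% on average).

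ATP2A2 was spread over transcripts with either end. Transcripts with the SERCA2a end held 11.7, 14.4 and 10.4% of the TPM of transcripts with a SERCA2a or SERCA2b end in shNT, and 12.4, 9.63 and 11.3% in shARMC5 libraries. The groups overlapped (12.2% ± 2.04 and 11.1% ± 1.39, SD, n = 3, exact permutation P = 0.5). The difference of -1.06 percentage points became 0.0673 without shNT replicate 2 and -1.93 without shNT replicate 3, and -0.314 without shARMC5 replicate 2 and -1.69 without shARMC5 replicate 1. A transcript of 5702 bases (ENST00000377685), which has the SERCA2b end and is annotated for NMD, held 49.1% ± 1.47 of the gene's reads in shNT and 48.1% ± 1.55 in shARMC5 (SD, n = 3, exact permutation P = 0.5). The coding transcript of 2951 bases (ENST00000548169) showed a log2 fold change of 0.13 ± 0.05 (SE, adjusted P = 0.957, edgeR's test).

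The other genes of calcium signalling were put into 9 lists by function, with 153 genes, of which 151 were matched and 123 tested. Of these, 10 rose and 3 fell, or 10.6%, beside 7.75% of all tested genes. The median log2 fold change of the 123 was 0.02, and the median of its size without sign was 0.07, beside 0.08 over all tested genes.

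Upstream of the receptors, 1 of 13 tested genes of IP3 production rose and 1 fell. PLCD3, a phospholipase C, rose by 0.14 on the log2 scale (SE 0.03, adjusted P = 0.0111, edgeR's test), and GNAQ, the alpha subunit of Gq, had -0.13 ± 0.04 (SE, adjusted P = 0.0612). With the length offset the log2 fold change of PLCD3 was larger, 0.21 in both edgeR and DESeq2. It was not called there (adjusted P = 0.459 in edgeR, 0.25 in DESeq2). Of 14 genes of IP3 turnover 1 fell, IMPA2, an inositol monophosphatase, with a log2 fold change of -0.20 ± 0.06 (SE, adjusted P = 0.0562). GNAQ was not called under 9 of 16 alternatives and IMPA2 under 8.

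Of 18 tested proteins that bind or regulate IP3 receptors, 3 rose and none fell. BCL2L1, which encodes the survival protein BCL-XL, went from 224.9 CPM ± 4.85 to 253.3 CPM ± 4.61 (SD, n = 3, log2 fold change 0.17, SE 0.03, adjusted P = 0.00128, edgeR's test). It was called under all 16 alternatives. FKBP1A, an immunophilin known to bind calcium release channels, showed a log2 fold change of 0.11 (adjusted P = 0.0386) and was not called under 5 alternatives. The length offset was among them, with a log2 fold change of 0.10 in edgeR.

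Of 8 other release and leak channels 1 rose. SEC61A1, the pore of the protein translocon through which calcium can leak, showed a log2 fold change of 0.10 ± 0.02 (SE, adjusted P = 0.0222, edgeR's test). With the length offset in edgeR it was 0.08 and was not called (adjusted P = 0.298). Ryanodine receptors, the second class of ER release channel, were nearly unread, with RYR1 and RYR2 at 0 or 1 reads and RYR3 at 16 to 28 reads per library.

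Among the other pumps and the small SERCA regulators, 8 were tested, 2 rose and 1 fell. ATP2C1, the calcium and manganese pump of the Golgi apparatus, had 353.7, 351.4 and 339.6 CPM in shNT replicates 1, 2 and 3, and 413.2, 423.1 and 411.3 CPM in shARMC5 replicates 1, 2 and 3. The groups were well apart. Its log2 fold change was 0.26 ± 0.03 (SE, adjusted P = 1.42e-05, edgeR's test). Its paralog ATP2C2 moved the other way, from 51.8 CPM ± 0.608 to 45.6 CPM ± 1.28 (SD, n = 3, log2 fold change -0.18, SE 0.04, adjusted P = 0.0214, edgeR's test). Both calls were made under all 16 alternatives. With the length offset, in both edgeR and DESeq2, the log2 fold change was larger, at -0.31 for ATP2C2 and 0.32 for ATP2C1. TMX1, an ER oxidoreductase, showed a log2 fold change of 0.12 (adjusted P = 0.086, edgeR's test) and was not called under 9 of 16. The muscle SERCA regulators PLN and SLN had 0 and 0 to 4 reads. ATP2B4, a plasma membrane pump, varied from 2 to 457 reads between libraries, with a log2 fold change of -0.51 and a standard error of 1.11.

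None of the 12 other store-operated entry genes and none of the 19 genes of calmodulin, calcineurin and NFAT was called. Of 13 tested calcium-binding proteins of the ER lumen 2 rose, CALU with a log2 fold change of 0.09 (adjusted P = 0.058) and HSPA5, the chaperone BiP, with 0.08 (adjusted P = 0.0991, edgeR's test). The fold changes of all 13 lay between 0.02 and 0.09. Of 18 mitochondrial and contact genes 1 rose, VDAC1, the outer membrane channel that takes up calcium, with 0.10 (adjusted P = 0.034). CALU, HSPA5 and VDAC1 were not called with the length offset in edgeR (adjusted P of 0.213, 0.273 and 0.201). Their log2 fold changes there were 0.0859, 0.0811 and 0.0906, little different from those without it. In all, HSPA5 was not called under 10 of 16 alternatives, CALU under 6 and VDAC1 under 4.

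**Figure D5:**
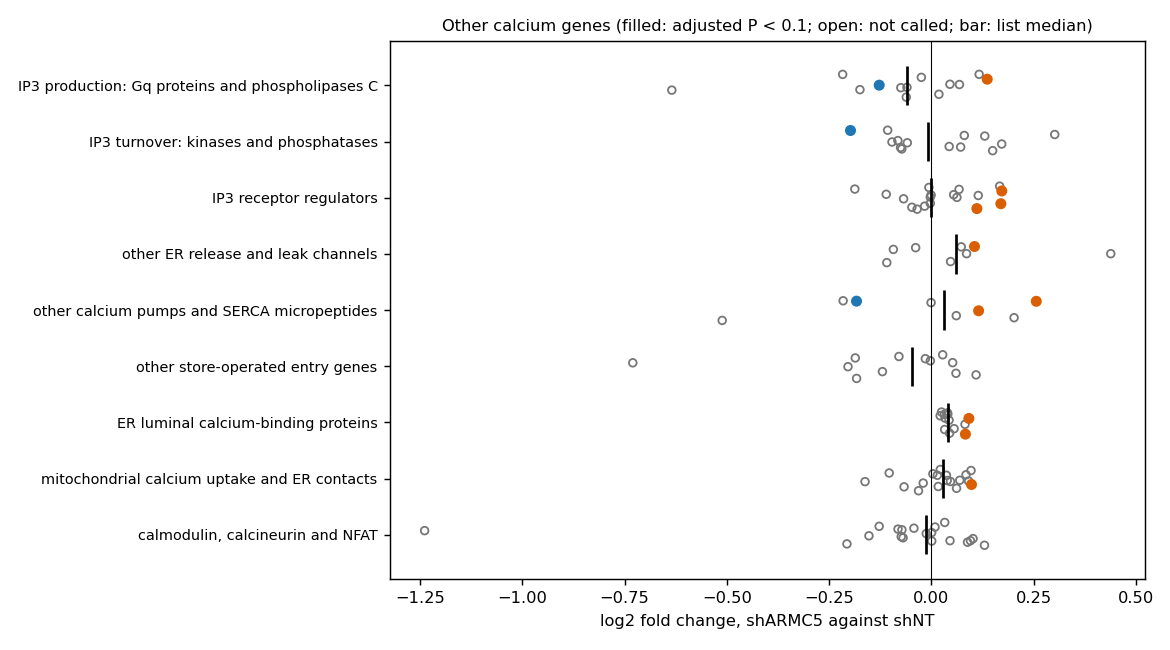
Points are the 123 other tested calcium genes, with the log2 fold change of shARMC5 against shNT on the horizontal axis and the 9 lists on the vertical axis; filled points were called, and bars are list medians. The called genes lie between -0.20 and 0.26, and the points farthest from 0, such as NFATC4 at -1.24 (chosen after its values were seen, 3 to 24 reads), are open.

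The genes whose log2 CPM followed that of ITPR2 most closely over the 6 libraries were TEP1 (Pearson r = 0.996), SIN3A (0.996) and TBC1D8B (0.996), out of 10368 genes that averaged 5 CPM or more. The value describes 6 points in 2 groups that differ in level, and 131 genes had r of at least 0.95. TEP1, a telomerase-associated protein, had 28.6, 24.5 and 25.8 CPM in shNT and 21.8, 20.1 and 19.2 CPM in shARMC5 replicates 1, 2 and 3, and its log2 fold change was -0.37 ± 0.07 (SE, adjusted P = 0.00564, edgeR's test). SIN3A, a corepressor scaffold, had -0.18 (adjusted P = 0.01) and TBC1D8B -0.14 (adjusted P = 0.0607). All 3 were chosen for their likeness to ITPR2 over these same libraries, so their direction and P values follow from that choice and are a description. None of the 3 was called with the length offset in edgeR (adjusted P of 0.256, 0.201 and 0.32). Their log2 fold changes there were -0.26, -0.18 and -0.13. In DESeq2 with the offset SIN3A was called (adjusted P = 0.0668), while TEP1 and TBC1D8B were not (0.186 and 0.297).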

How the data were processed

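Polyadenylated RNA of 6 libraries (3 shARMC5, 3 shNT) was analysed. Per the labels and the study's methods, the authors used cutadapt 4.2 for trimming and then salmon 1.9.0, with GC correction, to quantify transcripts on hg38. The deposited values for each transcript are an estimated count of reads, not normalized, TPM, length and effective length. The transcript set is not given in the sources used here. Identifiers were matched without version to GENCODE 44 (GRCh38). Of 177456 transcripts, 11923, with 2.96 to 3.04% of reads, had no match and were left out, except in 1 alternative. For STIM1 20 of 32, for STIM2 10 of 11 and for ORAI1 3 of 4 GENCODE transcripts were matched. Sequences were read from GENCODE transcripts.

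Estimated counts as deposited were summed per gene and rounded to whole numbers. A gene needed 10 or more counts in 3 or more libraries. The test was edgeR 4.0.16 glmQLFTest, a quasi-likelihood test, under R 4.3.3 (robust fit, TMM factors of 0.992 to 1.02, no covariate), and P values were adjusted by Benjamini-Hochberg over all genes tested, with a call under 0.1. Transcripts were tested alike. The standard error is the size of the log2 fold change divided by the square root of F. CPM values are TMM-normalized. Shares of TPM, as deposited by the authors, were compared with two-sided exact permutation tests (scipy 1.17.1). The fits were tested on simulated data. Depth limits low genes: ATP2A3 had 3 to 7 reads, and intervals cover the spread between libraries only.

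The members, the gene lists and the markers were chosen with earlier results of these data known. Named genes are the members, ARMC5, up to 3 called genes each way in each list, and the 3 genes most correlated with ITPR2 (log2 of CPM with 0.5 added). One gene that this rule names is not reported here. UQCC2 (for its overlap), ORAI2, ATP2A1, RYR1, RYR2, RYR3, PLN, SLN, ATP2B4, NFATC4 and the markers CDX1, LGALS4, KRT8, KRT18, KRT19, VIL1, CDH17 and ELF3 were named after their values were seen. Alternatives were the size factors of DESeq2 1.42.0 in edgeR, library size only, a length offset in edgeR, DESeq2 without and with it, other filters, a replicate block, each library left out, an adjusted P under 0.05, and unmatched transcripts added to the gene listed before them. For shares these were rounded counts or protein-coding transcripts only. The STIM2 and ATP2A2 isoform shares, with their variants, were added after seeing the data. Python 3.11.15 with pandas 2.3.3 and numpy 2.4.6 was used for tables.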

Additional observations from a re-analysis of the deposited data

How the results depend on the processing

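Several calls depended on the setting. The count of called genes was 1064, and it was 235 with a length offset in edgeR, 568 in DESeq2 with that offset, 676 at an adjusted P under 0.05, and 536 to 1085 with 1 library left out. Of the 9 genes 1 was called, against 0 at an adjusted P under 0.05 and 0 to 1 with 1 library left out. Of the other calcium genes 13 were called, against 4 with the offset in edgeR, 7 in DESeq2 with it, 8 at an adjusted P under 0.05, and 6 to 15 with 1 library left out. Member transcripts called were 0 in edgeR and 3 in DESeq2. ARMC5, ATP2C1, ATP2C2 and BCL2L1 were called under all 16 alternatives. ITPR2 was not called in 3 of the fits without 1 library. The cause of these changes was not tested.

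Libraries of the same replicate number did not deviate together: deviations from the group means correlated at -0.0499, -0.047 and 0.0762 between them. Pairs of unlike number lay between -0.152 and 0.173. With 3 libraries per group these values cannot show whether the libraries were paired. With the number as a replicate block, 1766 genes and 24 of the other calcium genes were called.

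Directions turned for values near 0. ITPR1 was at -0.0044 with library size only, and between -0.131 and 0.194 with 1 library left out (-0.131, -0.0102 and -0.0707 where it turned). STIM1 was at -0.0774 with the offset in edgeR, at -0.0781 in DESeq2 with the offset, and between -0.0115 (without shNT replicate 3) and 0.0669 with 1 library left out. ITPR3 was between -0.0778 and 0.0103 (without shARMC5 replicate 3) with 1 library left out. The difference in the SERCA2a share turned from -1.06 to 0.0673 percentage points without shNT replicate 2. With protein-coding transcripts only, the differences in family share were -4.57 (ITPR2), 4.58 (ITPR3), 0.878 (STIM1) and 6.03 (ORAI1) percentage points, beside -6.37, 6.20, -2.39 and 4.80.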
